A study of Mus musculus with 1666 samples.

Results

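Imprinted genes were followed in single cells of the developing mouse whisker follicle, where a set of 32 genes known to be expressed from 1 parental allele in at least some tissues was chosen by name. All 32 had a row among the 49662 gene symbols of the deposited expression table. The study sampled follicle cells at E11.5 (embryonic days are written with an E), at E12.0 and E13.0, at E13.5 and E14.0, and at E15.0 and E17.0, which makes 7 stages, and profiled them by RamDA-seq, a full-length method that reads total RNA of 1 cell. The embryos came from a transgenic mouse line whose nuclei carry the photoconvertible protein Kikume Green-Red. From E12.0 on, whole whisker follicles had been turned red by light and cells were sorted for red fluorescence, for the integrin ITGA6 and against the endothelial protein CD31, whereas the E11.5 cells were sorted by ITGA6 and CD31 alone. No mutation or drug treatment is named, and the labels name neither the embryos nor the litters nor the sex of the animals.

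Values are TPM, an abundance per gene length and library, so levels of different genes can be set side by side, and the sequencing depth of a cell is unknown. The 1614 cells with values came from 18 plates, as read from the codes in the cell titles, and their 1614 profiles were all distinct. Cells were split by 4 genes. Epithelial cells had Krt5 and Trp63, genes of basal epidermis, at 10 TPM or more each and the collagen gene Col3a1 under 50 TPM. Fibroblast-like cells had Col3a1 at 50 TPM or more, the mesenchymal receptor gene Pdgfra at 10 TPM or more and Trp63 under 10 TPM. This gave 1035 epithelial cells, 54, 267, 53, 159, 144, 178 and 180 of them in stage order, and 417 fibroblast-like cells, of which 14, 210, 19, 126 and 46 were at E11.5, E13.0, E14.0, E15.0 and E17.0. The 2 fibroblast-like cells at E13.5 were too few to use, none were found at E12.0, and 162 cells met neither rule.

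Other markers matched the class names. The summed level of 9 further fibroblast genes was 1169 to 4075 TPM by stage in fibroblast-like cells and 25.8 to 198 TPM in epithelial cells, and that of 10 further basal genes was 672 to 2172 TPM in epithelial cells and 31.99 to 115 TPM in fibroblast-like cells. The share of epithelial cells with at least 1 TPM of Xist, the X-inactivation RNA, was 21.4 to 61.1% on 10 plates and at most 10% on the other 8, which were all plates of stages E13.5, E14.0 and E17.0 plus the first E15.0 plate. The first E15.0 plate also stood apart by its cell mix. Without it the counts of imprinted genes called in the 4 tests below were the same. A stage mean is the mean of its plates with equal weight, and the stage is the unit of every test because nothing says that plates hold different embryos; E11.5 has 1 plate, and p-values measure only the spread of stages around a line or a mean.

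Genomic imprinting silences 1 parental copy of a gene through DNA methylation laid down in the germ line at control regions, and many imprinted genes lie in clusters that share 1 such region. Paternally expressed members such as Igf2 tend to promote fetal growth, and maternally expressed members such as Grb10 and Cdkn1c tend to restrain it. In the embryo many of them are abundant in mesoderm and fall in expression around birth. The parental allele of a read is not resolved in these data, so the values below are total levels from both copies.

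Igf2 encodes insulin-like growth factor 2, the main fetal growth ligand, and lies on chromosome 7 (chr7:142650766-142666816, mm10, minus strand). In epithelial cells its stage means were 604, 195.6, 290, 289, 143, 55.3 and 16.5 TPM from E11.5 to E17.0. The level was highest at E11.5 and lowest at E17.0. Plate means at E12.0, 135 to 230.8 TPM, lay below those at E13.5, 259.6 and 318.2 TPM, and those at E13.0, 154.5 to 460.2 TPM, overlapped both. In limma's test of a linear trend over days, Igf2 fell by 0.86 on the log2 scale per day (SE 0.117, adjusted p = 0.0194, 7 stages). The fall was no longer called without E11.5, E15.0 or E17.0, and the E11.5 cells were sorted without photoconversion. Fibroblast-like cells had 32.1, 165, 139, 219 and 527 TPM at E11.5, E13.0, E14.0, E15.0 and E17.0, so that the class with more Igf2 changed from epithelial, at 18.8 times the fibroblast-like level at E11.5, to fibroblast-like, at 32.01 times the epithelial level at E17.0. At E17.0 the fibroblast-like plates averaged 397, 956 and 228 TPM, and the highest 5 of 46 cells held 50.5% of the summed level. At E11.5 the fibroblast-like mean rested on 14 cells of 1 plate. The fibroblast-like trend of 0.66 log2 units per day missed the threshold (SE 0.104, adjusted p = 0.0812).

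H19, a maternally expressed noncoding RNA whose transcription depends on enhancers shared with Igf2 (chr7:142575529-142578143, minus strand), was the most abundant member in the epithelium at each stage. Epithelial stage means were 856, 551, 1263, 1680, 1178, 810 and 495 TPM, highest at E13.5 and lowest at E17.0 and E12.0. Its epithelial slope was -0.10 log2 units per day (SE 0.121, adjusted p = 0.694). In fibroblast-like cells H19 rose, with 127, 305, 459, 675 and 1653 TPM over the 5 stages and a slope of 0.66 log2 units per day (SE 0.0388, adjusted p = 0.0345). The median cell did not follow the mean: it had 140, 226, 125, 152 and 286 TPM, and the 3 plates of E17.0 averaged 1047, 2905 and 1007 TPM. With log2 values averaged over cells the slope was 0.05 (adjusted p = 0.759), and the call was lost when any of the 5 stages or either E14.0 plate was left out.

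The ratio of H19 to Igf2 moved in 1 direction in the epithelium. It was 1.42, 2.82, 4.35, 5.82, 8.22, 14.6 and 30.1 from E11.5 to E17.0, higher at each stage than at the one before. In fibroblast-like cells it was 3.94, 1.85, 3.30, 3.08 and 3.14, without an order over the stages. The ratio is that of stage means, its order over single plates was not examined, and it was not tested. Exons of Igf2 share 64.5% of their bases with the annotated genes Gm49394 and Igf2os, and whether the counting used strand or dropped shared reads is not given in the sources used here, so reads of these genes cannot be told apart.

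Igf2r, the receptor that takes up and degrades IGF2, and Airn, the paternally expressed RNA that starts inside Igf2r on the opposite strand, are on chromosome 17. Igf2r had 73.6, 43.99, 59.97, 40.1, 42.5, 40.7 and 36.5 TPM in epithelial cells and 25.2, 62.2, 64.7, 73.99 and 77.9 TPM in fibroblast-like cells. Airn had 62.2, 42.96, 38.2, 30.97, 30.04, 31.1 and 22.7 TPM in the epithelium, with a slope of -0.22 that came close to the threshold (adjusted p = 0.0583). Neither trend of Igf2r and neither trend of Airn was called, and the class ranges overlapped for both genes.

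Grb10 encodes an adaptor that restrains insulin and IGF receptor signalling (chr11:11930508-12038683, minus strand). Its epithelial stage means were 292, 247, 183, 140, 85.8, 42.5 and 14.3 TPM. Each stage was below the one before, and Grb10 fell by 0.81 log2 units per day (SE 0.0484, adjusted p = 0.00436), the lowest adjusted p among the members in this test. Plate means of neighbouring stages overlapped from E11.5 to E13.5, at 292, 203 to 300, 139 to 210 and 132 to 147 TPM. The share of epithelial cells with at least 1 TPM went from 100% of 54 cells at E11.5 to 44.4% of 180 cells at E17.0 (exact binomial 95% interval 37.1 to 52.02%, for counting error only). Fibroblast-like cells had 276, 288.5, 208, 216 and 181 TPM, and at E17.0 all 46 of them had at least 1 TPM. The fibroblast-like level was thus 0.944 times the epithelial one at E11.5 and 12.7 times at E17.0.

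Cdkn1c, the cyclin-dependent kinase inhibitor p57 (chr7:143458339-143461050, minus strand), also fell in the epithelium. Epithelial stage means were 102, 66.9, 62.6, 60.7, 31.4, 17.9 and 9.35 TPM, again lower at each stage than at the one before, and the slope was -0.61 (SE 0.0611, adjusted p = 0.0114). Plate means of E12.0, E13.0 and E13.5 overlapped, at 60.5 to 79.7, 40.9 to 75.6 and 57.5 to 63.9 TPM. Fibroblast-like cells had 83.5, 85.3, 53.7, 47.7 and 61.8 TPM, and at E17.0 the median fibroblast-like cell had 6.64 TPM. The antisense gene Gm44732 covers 30.7% of the exonic bases of Cdkn1c, and without known strand use the 2 cannot be told apart. Of the other members of this chromosome 7 cluster, Kcnq1ot1, the antisense RNA that silences it on the paternal copy, had 5.21 to 7.30 TPM in epithelial and 4.34 to 7.52 TPM in fibroblast-like cells. Phlda2, a restrainer of placental growth, had 3.17, 5.58, 1.41, 1.64, 1.90, 0.868 and 1.5004 TPM in the epithelium. Ascl2, a trophoblast transcription factor, stayed at or under 2.23 TPM in the epithelium and 0.157 TPM in fibroblast-like cells.

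**Figure D1:**
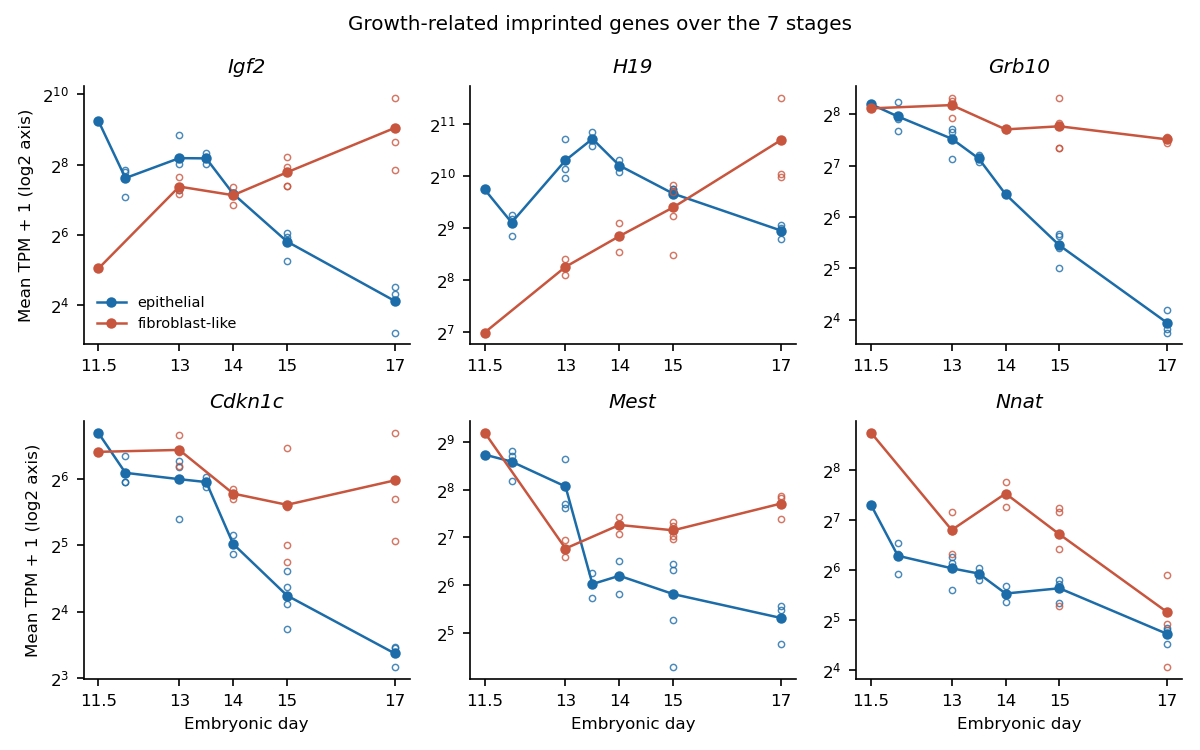
Stage means (filled points and lines) and plate means (open points) of 6 imprinted genes in epithelial and fibroblast-like cells, as TPM + 1 on a log2 axis against embryonic day. Igf2, Grb10, Cdkn1c, Mest and Nnat end far below their E11.5 level in the epithelium, and the fibroblast-like values of Igf2 and H19 end above their E11.5 level.

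Mest, a paternally expressed gene of the hydrolase fold family (chr6:30723547-30748465, plus strand), had 424, 383, 267, 64.03, 72.3, 55.2 and 38.8 TPM in the epithelium. Most of the drop lay between E13.0 and E13.5, where plate means of 195 to 397 TPM and of 52.3 and 75.8 TPM did not overlap. The slope was -0.69 (SE 0.129, adjusted p = 0.0466) and was lost under 14 of 37 alternatives. The Xist share also differed between these stages, at 21.4 to 50% and at most 7.59% of epithelial cells by plate, and among cells with Xist under 1 TPM the Mest slope missed the threshold (adjusted p = 0.0618). Fibroblast-like cells had 584, 107.9, 152, 141 and 208 TPM, highest at E11.5. Of the exonic bases of Mest, 23.1% lie opposite Copg2. The 250 bases before a Mest start are shown because Mest, which fell here, was the member with the most copies of TGCCGC, the core of the motif bound by ZFP57, the zinc finger protein that keeps imprints in the embryo; capitals mark this motif, here as its complement, at chr6:30737800-30738049 (GRCm38.p6, plus strand, RefSeq).
Mest promoter: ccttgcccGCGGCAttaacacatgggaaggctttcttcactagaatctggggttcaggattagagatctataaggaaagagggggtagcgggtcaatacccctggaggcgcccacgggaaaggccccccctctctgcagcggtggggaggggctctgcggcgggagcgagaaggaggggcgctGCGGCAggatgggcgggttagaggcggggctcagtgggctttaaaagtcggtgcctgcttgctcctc

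Among the 26 members with a promoter in the RefSeq table, 8 held TGCCGC on either strand in the 300 bases around a start, in 9 of their 43 promoters. Of all 32851 promoters, 11.6% held it, and 1.53% held it 2 times or more as Mest did. A match is a description of the letters and not a binding site.

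Nnat, which encodes the small membrane protein neuronatin of endoplasmic reticulum (chr2:157560078-157562522, plus strand), was the fifth gene that fell in the epithelium. Its stage means were 157, 76.9, 64.5, 59.9, 45.2, 48.7 and 25.4 TPM (slope -0.39, SE 0.0627, adjusted p = 0.0305). The call was lost under 8 of 37 alternatives, among them leaving out any 1 stage other than E11.5, with slopes of -0.54 to -0.14 over all alternatives. In fibroblast-like cells it had 426, 110, 183, 104 and 34.7 TPM (slope -0.58, adjusted p = 0.0937). Nnat was thus highest at E11.5 and lowest at E17.0 in both classes, and higher in fibroblast-like cells of each of the 5 stages.

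In all, 28 members passed the filter of a mean of 1 TPM in the epithelium. Of these 5 fell and 0 rose, and 13 had an unadjusted p under 0.05. Over the 23667 genes tested, 0.646% fell and 1.23% rose by the same rule. The median slope was -0.09 over the members and -0.01 over all genes. Markers of 2 other cell types moved over the same stages in epithelial cells: 2 of 4 fibroblast markers tested, Col1a1 and Col1a2, and the 1 melanocyte marker tested, Mitf (adjusted p = 0.0418), rose. The 5 melanocyte markers summed to 2.20 TPM in the first stage and to 15.2 TPM in the last, where 3 of them were under 1 TPM. The part of these markers in the members' trends was not tested. The next members by adjusted p were Airn and Ndn, both at 0.0583. With the 8 plates of 1 format of the label text alone, which leave 5 stages, no member was called (all genes: 0). With stages numbered by rank instead of dated, 8 members fell and 1 rose, beside 664 and 740 of 23667 genes.

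In fibroblast-like cells 29 members were tested over 5 stages. H19 rose and none fell, against 0.262% of the 24047 genes rising and 0.0832% falling, and 9 members had an unadjusted p under 0.05. Without E11.5, the stage with 14 such cells, no member and no gene of the 24348 tested was called. The median slope of the members was 0.07, with 17 above 0, and that of all genes was 0.04.

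Plagl1, a zinc finger factor on chromosome 10 (chr10:13060504-13131694, plus strand), was highest in the middle of the series. In the epithelium it had 41.4, 18.3, 18.3, 110, 107, 49.7 and 21.2 TPM. Plates of E13.5 and E14.0, at 95.95 to 122 TPM, lay above every plate of the other stages, which reached at most 87.4 TPM. Fibroblast-like cells had 4.05, 46.6, 55.3, 47.8 and 63.8 TPM, lowest at E11.5. This course was noticed in the values and was not tested, and the linear slope was 0.01 (adjusted p = 0.992).

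On chromosome 12 the Dlk1 to Mirg cluster carries paternally expressed coding genes and maternally expressed noncoding RNAs that host many small RNAs. Dlk1, a membrane protein of the Notch ligand type that restrains mesenchymal differentiation (chr12:109452823-109463336, plus strand), had 0.415, 0.320, 0.175, 0.571, 6.48, 3.48 and 1.60 TPM in the epithelium and 4.63, 36.9, 28.1, 22.7 and 56.6 TPM in fibroblast-like cells. At E17.0 its fibroblast-like mean rested on few cells: 17 of 46 cells had at least 1 TPM, the plates averaged 17.9, 143 and 8.80 TPM, and 5 cells held 97.1% of the summed level. Within stages Dlk1 was 3.17 log2 units higher in fibroblast-like cells (SE 0.521, adjusted p = 0.00918, in 5 of 5 stages).

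Meg3, the noncoding RNA at the start of the maternal transcripts (chr12:109541001-109571726, plus strand), had 3.93, 1.94, 4.86, 16.4, 18.7, 17.1 and 17.8 TPM in the epithelium and 26.04, 160, 137, 123 and 161 TPM in fibroblast-like cells. The lowest fibroblast-like stage lay above the highest epithelial one, and the difference within stages was 3.19 log2 units in favour of fibroblast-like cells (SE 0.331, adjusted p = 0.00196). Rian, which follows it and hosts box C/D small nucleolar RNAs, had 28.1, 19.4, 20.5, 41.3, 113, 82.2 and 71.9 TPM against 89.3, 562, 316, 349 and 349 TPM (2.43 log2 units higher in fibroblast-like cells, adjusted p = 0.0155). Mirg, a host of microRNAs, had 0.645 to 11.3 TPM against 7.36 to 22.9 TPM (2.15 log2 units, adjusted p = 0.0233). Rtl1, a coding gene derived from a retrotransposon on the opposite strand, had 0.303 to 4.49 TPM against 1.78 to 7.51 TPM and was not called (adjusted p = 0.203).

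Within the epithelium, the means of Meg3, Rian, Mirg and Dlk1 were each higher at E14.0 than at E12.0, Meg3 at 18.7 against 1.94 TPM. None of their trends over days was called (Meg3 slope 0.48, adjusted p = 0.135). At E14.0 the highest 14 of 144 cells held 61.6% of the summed level of Meg3 and 59.2% of that of Rian. For Mirg and Dlk1 these shares were 79.7 and 91.3%. At E12.0 the highest 27 of 267 cells held 63.7, 35.2, 81.3 and 92.2%, in the same gene order. Only for Rian was the share of the highest cells larger at E14.0 than at E12.0. These shares do not show whether the level rose in most epithelial cells. The 2 fibroblast markers Col1a1 and Col1a2 rose in the same epithelial cells, whose 9 fibroblast markers summed to 25.8 to 198 TPM by stage. The cell-to-cell correlation of this sum with Meg3 in the epithelium was 0.10. Their part in the Meg3 values was not tested.

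**Figure D2:**
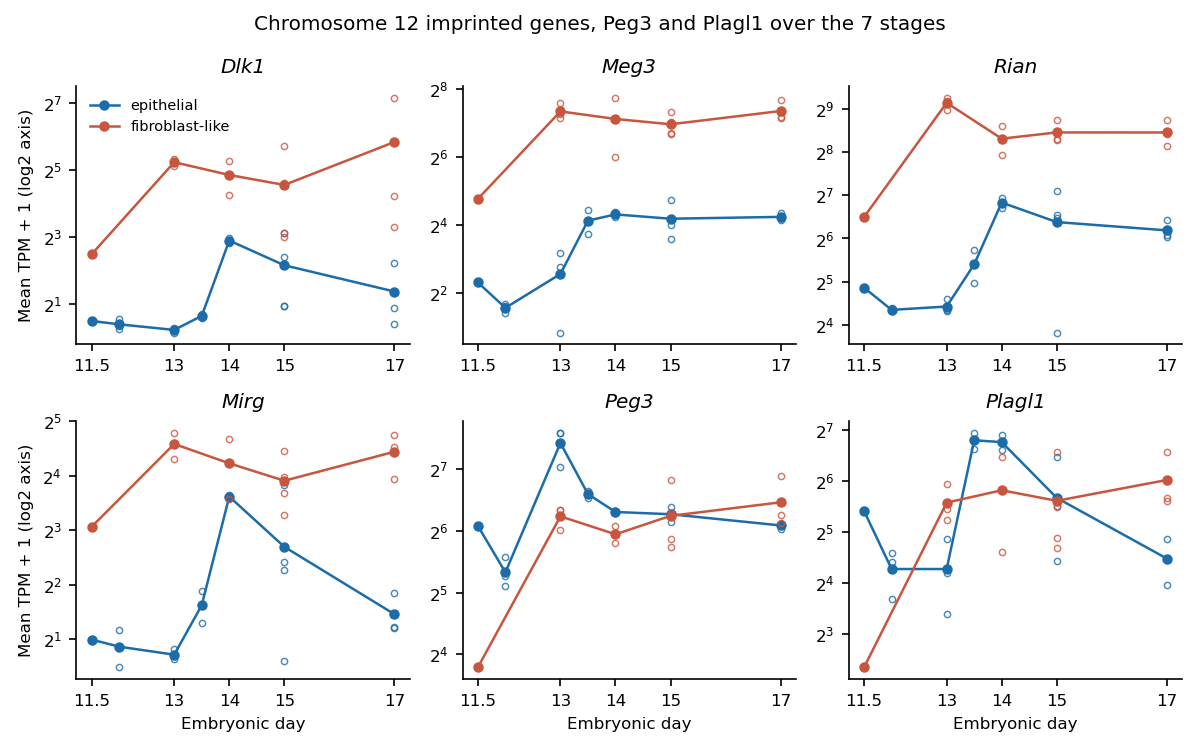
Stage means (filled points and lines) and plate means (open points) as TPM + 1 on a log2 axis against embryonic day for 4 genes of the chromosome 12 cluster, Peg3 and Plagl1. Fibroblast-like values of Dlk1, Meg3, Rian and Mirg lie above the epithelial ones at each shared stage.

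The same cluster holds 60 annotated microRNA loci between the starts and ends of Meg3 and Mirg. Values at these loci count reads over the precursor and the RNA it is cut from, not the mature microRNA. Their summed level was 13.4, 13.1, 15.9, 132, 222, 159 and 23.1 TPM in epithelial cells, highest from E13.5 to E15.0, and 70.8, 368, 271, 183 and 286 TPM in fibroblast-like cells. The sum over the loci was 1 TPM or more in 22.6 to 39.6% of epithelial cells and in 58.7 to 91.4% of fibroblast-like cells by stage. Of 46 loci tested between the classes, 10 were higher in fibroblast-like cells and 0 in epithelial cells, beside 13.3% and 7.99% of all genes, and the median difference was -1.02 log2 units, epithelial minus fibroblast-like. The filter used the mean of both classes. In the trend tests of each class alone, 32 loci passed it in the epithelium and 49 in fibroblast-like cells. Loci could thus enter the comparison through fibroblast-like cells alone, which tilts this count and median. Mir381 had 3.52, 5.73, 8.91, 3.96 and 3.89 TPM in fibroblast-like cells and 0 to 2.30 TPM in the epithelium. Mir1906-1, inside Meg3, had 2.79, 20.6, 16.1, 14.6 and 11.8 TPM against 0.568 to 4.02 TPM.

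Mature sequences of all 10 called loci were found in RefSeq (GRCm38.p6), 18 in all. One arm of 9 loci is printed to show what the called loci encode, with the seed, bases 2 to 8 that pair with targets, in capitals. Loci outside Meg3, Rian, Mirg and Rtl1 were named after their values were seen.
mmu-miR-377-3p: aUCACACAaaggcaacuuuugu
mmu-miR-381-3p: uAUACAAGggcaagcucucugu
mmu-miR-382-5p: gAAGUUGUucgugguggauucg
mmu-miR-539-5p: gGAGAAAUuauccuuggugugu
mmu-miR-1906: uGCAGCAGccugaggcagggcu
mmu-miR-134-5p: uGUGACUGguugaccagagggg
mmu-miR-369-3p: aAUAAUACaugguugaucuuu
mmu-miR-410-3p: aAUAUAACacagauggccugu
mmu-miR-668-3p: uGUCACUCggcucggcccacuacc

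These 9 seeds are all different. Over the 119 mature sequences of 64 loci in the members and the cluster, there were 110 different seeds, and 9 seeds were held by 2 sequences each, such as GGUUGUC in miR-410-5p and miR-494-5p and GGUAGAC in miR-379-5p and miR-1193-5p. The remaining called locus, Mir3070a, shares the seed GGUGCUA of its 3p arm with Mir3070b.

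Peg3, a paternally expressed zinc finger gene (chr7:6703892-6730431, minus strand), had 66.7, 39.2, 170.7, 95.7, 78.1, 76.2 and 67.01 TPM in the epithelium, highest at E13.0, and 12.8, 74.3, 60.6, 74.8 and 87.2 TPM in fibroblast-like cells. Its neighbours were lower: the ubiquitin protease gene Usp29 had 6.08 to 11.7 and 8.58 to 15.4 TPM, and the zinc finger gene Zim1 had 2.10 to 6.38 and 1.97 to 23.1 TPM. No trend or class difference of these 3 genes was called, and the fibroblast-like slope of Zim1 was 0.49 (adjusted p = 0.103). Peg3 and Usp29 are transcribed away from each other, with 146 bases between their annotated starts. The 250 bases before the Usp29 start (chr7:6730333-6730582, GRCm38.p6, plus strand), which reach over the Peg3 start, are shown because the 2 genes varied together from cell to cell; capitals are not used, since neither TGCCGC nor the YY1 motif GCCATNTT, searched on both strands, is in this window.
Peg3 and Usp29 promoter: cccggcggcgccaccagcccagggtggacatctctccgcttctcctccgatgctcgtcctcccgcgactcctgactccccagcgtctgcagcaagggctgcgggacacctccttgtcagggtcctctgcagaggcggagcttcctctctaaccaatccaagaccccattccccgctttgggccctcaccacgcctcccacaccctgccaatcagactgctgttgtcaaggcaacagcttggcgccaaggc

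The genes of the Prader-Willi cluster on chromosome 7 were low. Of 4 members there, 3 could be tested and 2 of these were called between the classes, in favour of fibroblast-like cells, as were 13.3% of all genes. Peg12, an intronless gene (chr7:62461871-62464510, minus strand), had 0.0592 to 0.620 TPM in the epithelium and 6.92, 4.16, 5.77, 4.80 and 4.95 TPM in fibroblast-like cells. It was 2.39 log2 units higher there (SE 0.129, adjusted p = 0.000171), the lowest adjusted p of the members in this comparison. The filter used the mean of both classes, and only the fibroblast-like level carried Peg12 past it. Its entry to the test thus depended on the class where it was high. The share of fibroblast-like cells with at least 1 TPM was 73.9 to 100% by stage, and that of epithelial cells 0.556 to 22.5%. Ndn, the MAGE family gene necdin, had 12.4, 10.7, 15.9999, 14.9 and 15.4 TPM in fibroblast-like cells and 6.36, 4.84, 3.46, 2.81, 2.20, 1.55 and 1.67 TPM in the epithelium (1.99 log2 units, adjusted p = 0.0069). Magel2, a relative of necdin, had 0.816 to 2.16 TPM and 0.0284 to 0.250 TPM; its mean was too low for the test, and the ranges did not overlap. Snrpn, a splicing protein gene, had 5.56 to 8.93 TPM and 2.45 to 12.5 TPM, and 34.1% of its exonic bases are shared with Snurf and Gm38393.

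On chromosome 6, Peg10 and Sgce start 98 bases apart on opposite strands. Peg10, a placental gene derived from a retrotransposon (chr6:4747306-4760517, plus strand), had 36.4, 11.2, 21.6, 29.7 and 18.7 TPM in fibroblast-like cells and 4.58, 5.40, 6.42, 16.3, 12.1, 4.26 and 4.58 TPM in the epithelium (1.72 log2 units higher in fibroblast-like cells, adjusted p = 0.0179). Sgce, the dystrophin-associated protein epsilon-sarcoglycan, was steady within each class, with 13.9 to 15.3 TPM in fibroblast-like cells and 5.46 to 9.54 TPM in the epithelium, and the ranges did not overlap (0.99 log2 units, adjusted p = 0.00557). Ppp1r9a, a binding protein of actin and protein phosphatase 1, had 9.51 to 19.8 TPM and 4.64 to 9.33 TPM (0.94 log2 units, adjusted p = 0.0358), and this call was lost under 6 of 28 alternatives. Asb4, a ubiquitin ligase subunit gene, was at or under 0.9504 TPM in each class and stage.

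Gnas, the gene of the stimulatory G protein alpha subunit, was among the most abundant members, with 275 to 406 TPM in the epithelium and 282 to 638 TPM in fibroblast-like cells (adjusted p = 0.0585 between the classes). Of its exonic bases 21.96% lie over Nespas and Gm20721. Slc38a4, an amino acid transporter (chr15:96994820-97055956, minus strand), was the 1 member called higher in the epithelium. It had 16.7, 19.2, 18.5, 25.96, 42.2, 35.9 and 20.3 TPM there and 7.49, 13.6, 15.9, 5.91 and 2.33 TPM in fibroblast-like cells. No fibroblast-like stage reached the lowest epithelial stage, and the difference was 1.58 log2 units (SE 0.343, adjusted p = 0.0225). This call was lost under 5 of 28 alternatives, among them leaving out E14.0, E15.0 or E17.0 (adjusted p up to 0.0763). Impact, a translation regulator, and Zrsr1, a splicing factor retrogene, had 6.37 to 16.7 and 1.52 to 2.96 TPM in the epithelium and 12.97 to 17.1 and 2.17 to 3.34 TPM in fibroblast-like cells; neither difference was called.

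Between the classes, 29 members were tested over the 5 shared stages. Of these 10 were higher in fibroblast-like cells and 1 in the epithelium, and 16 had an unadjusted p under 0.05. Over the 24162 genes tested, 13.3% were higher in fibroblast-like cells and 7.99% in epithelial cells. The median difference, epithelial minus fibroblast-like, was -0.79 log2 units over the members and -0.10 over all genes, and 6 of 29 members were above 0. Nerve and Schwann cell markers summed to 18.2 to 68.4 TPM in fibroblast-like and 4.93 to 15.7 TPM in epithelial cells, and 10 of 15 G2/M cell cycle genes were higher in fibroblast-like cells; their part in these differences was not tested. Without E11.5, 15 members were higher in fibroblast-like cells and 1 in the epithelium, beside 4751 and 2330 of 24389 genes. Without E17.0 or without E15.0, 7 members were higher in fibroblast-like cells and 0 in the epithelium. Over all genes these numbers were 1729 and 1243 of 24135 without E17.0, and 1346 and 917 of 24042 without E15.0. The number of members called thus moved with the number of all genes called.

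**Figure D3:**
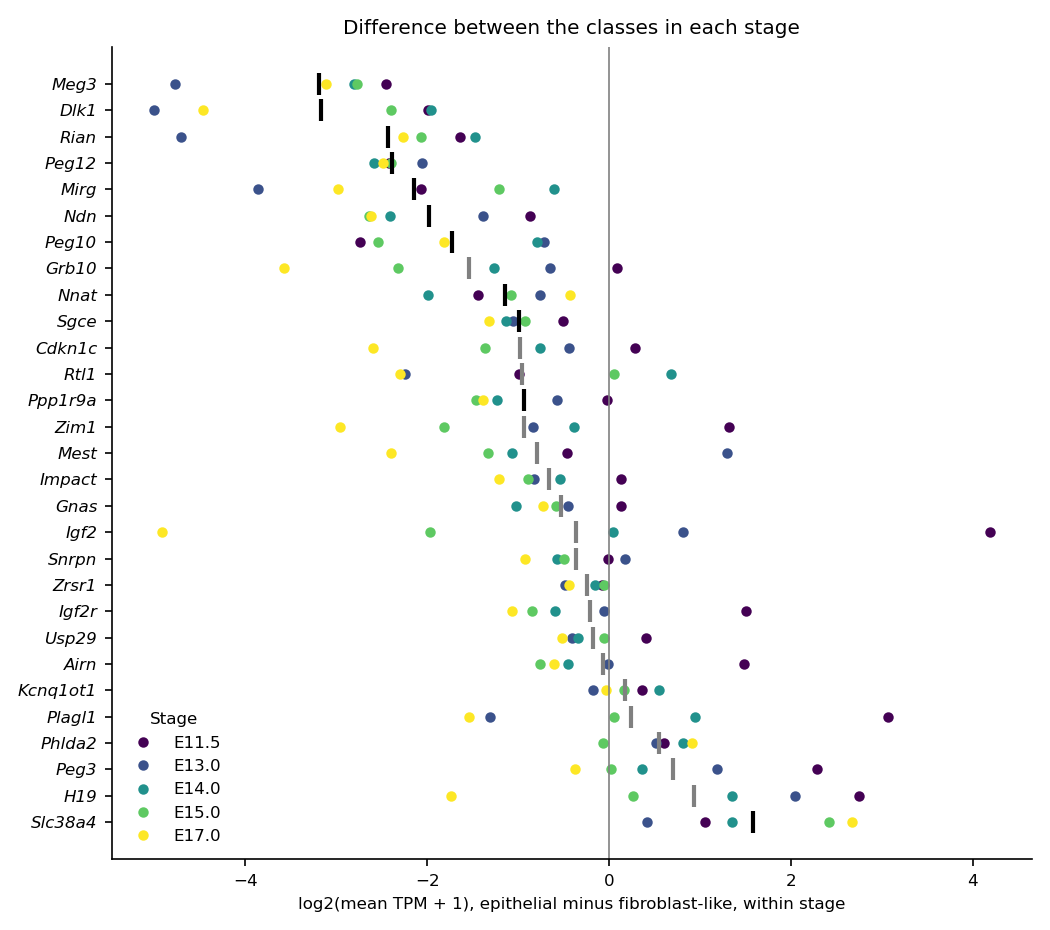
Difference between the classes for the 29 members tested, as log2(mean TPM + 1) of epithelial minus fibroblast-like cells within a stage. Each coloured point is a stage, the vertical tick is the mean over the 5 stages (black where the adjusted p is under 0.05, grey elsewhere), and the points of Igf2 spread from 4.19 at E11.5 to -4.92 at E17.0.

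Whether the course over days differed between the classes was tested on the same within-stage differences. For Igf2 the difference, epithelial minus fibroblast-like, was 4.19, 0.81, 0.04, -1.97 and -4.92 log2 units at E11.5, E13.0, E14.0, E15.0 and E17.0, lower at each stage than at the one before. Its slope was -1.62 log2 units per day (SE 0.0842) and missed the threshold (adjusted p = 0.0702). H19 went from 2.75 to -1.74, Grb10 from 0.08 to -3.57 and Cdkn1c from 0.28 to -2.60, with slopes of -0.83, -0.69 and -0.52 (adjusted p = 0.0822 each). No member and none of the 24162 genes was called, in either direction (0% of genes), while 13 of 29 members and 3524 of all genes had an unadjusted p under 0.05. With genes under a mean of 10 TPM left out, 4 of 21 members, Igf2, Grb10, H19 and Cdkn1c, were called with the lower slope in the epithelium, among 12 such genes of 9555 tested. A slope that misses the threshold does not show that the classes change alike.

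The genes that fell were detected in fewer epithelial cells at the last stage. At E11.5 all 5 were at 1 TPM or more in 100% of epithelial cells. At E17.0 the shares were 70.6% for Igf2 (63.3 to 77.1%), 44.4% for Grb10, 55% for Mest (47.4 to 62.4%) and 52.8% for Cdkn1c (45.2 to 60.2%), and higher for Nnat, at 87.2% (81.4 to 91.7%). H19 was still at 1 TPM or more in 99.4% of these cells. The remaining Igf2 was uneven: the highest 5 of 54 epithelial cells held 22.2% of its summed level at E11.5 and the highest 18 of 180 held 76.3% at E17.0, and for Grb10 these shares were 19.9 and 65.1%. Nnat stayed more evenly spread, at 19.2 and 33.2%. The median number of genes detected per epithelial cell was 17178 at E11.5 and 16497 at E17.0. Over the 32 members, the number detected at 1 TPM in 50% of the cells or more, at each stage, was 20 in epithelial and 24 in fibroblast-like cells.

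Cell-to-cell correlation was measured within plates as the partial Spearman correlation given the number of genes detected, and averaged over plates and stages. Cells of a plate are not replicates, and the labels do not say what a plate shares, so this is a description. Among epithelial cells (1011 cells, 7 stages), 29 members made 406 pairs with a median of 0.04, against 0.003 over all gene pairs. The share of pairs at 0.2 or more was 5.17% for members and 0.197% for all pairs. Among fibroblast-like cells (370 cells, 3 stages), 30 members made 435 pairs with a median of 0.08, against 0.003, and the shares were 21.1 and 1.14%.

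Pairs of neighbours on a chromosome had the higher medians. In the epithelium 32 pairs within 1 Mb had a median of 0.12 and 374 pairs further apart 0.03. In fibroblast-like cells these medians were 0.27 over 30 pairs and 0.07 over 405 pairs. Igf2 and H19 reached 0.69 in epithelial and 0.68 in fibroblast-like cells, Meg3 and Rian 0.58 and 0.83, Igf2r and Airn 0.39 and 0.44, and Peg3 and Usp29 0.38 and 0.34. Igf2 and H19, and Igf2r and Airn, are known to be expressed from opposite parental copies, and Meg3 and Rian, and Peg3 and Usp29, from the same one. Airn starts inside Igf2r, and the annotated exons of the 2 genes share no bases. Whether reads of unspliced RNA from 1 of these genes were counted for the other was not tested.

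By stage, the correlation of Igf2 with H19 in the epithelium was 0.82, 0.72, 0.82, 0.66, 0.64, 0.64 and 0.37 from E11.5 to E17.0, lowest in the stage where Igf2 was lowest. Meg3 with Rian went from 0.30 at E11.5 and 0.31 at E12.0 to 0.78, 0.71 and 0.74 at E14.0, E15.0 and E17.0. Of pairs on different chromosomes or further apart, Igf2 with Plagl1 was the highest in the epithelium at 0.30, with stage values of -0.08, 0.04, 0.31, 0.49, 0.62, 0.44 and 0.12; it was highest at E14.0, a stage with high Plagl1. In fibroblast-like cells the highest such pair was Rian with Plagl1 at 0.47.

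**Figure D4:**
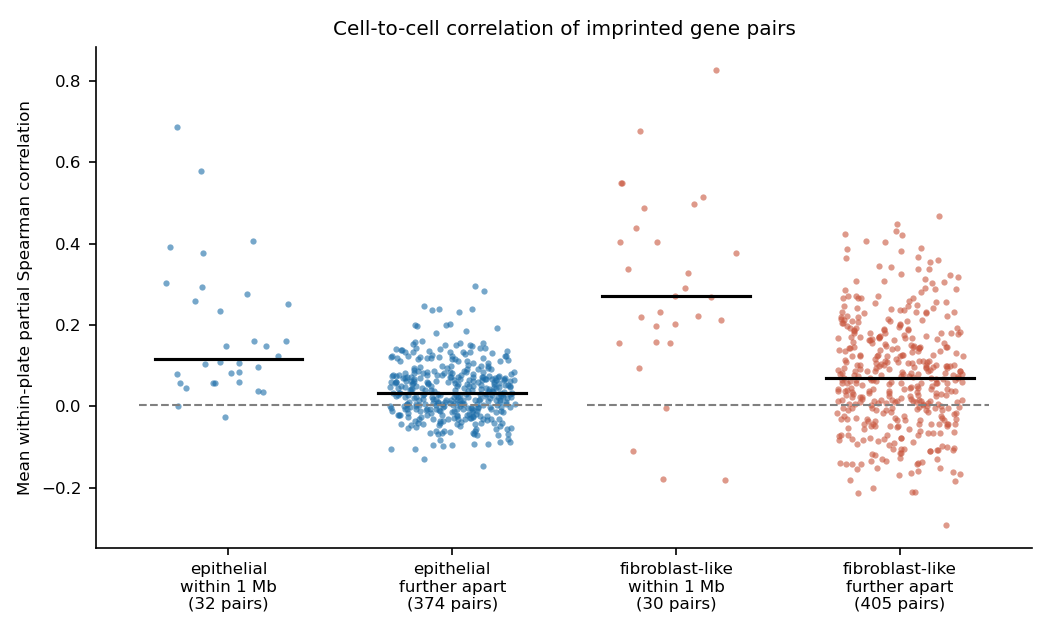
Mean within-plate partial Spearman correlation of each pair of imprinted genes, as points, split by class and by whether the 2 genes lie within 1 Mb. Black bars are medians of 0.12 and 0.03 in epithelial and 0.27 and 0.07 in fibroblast-like cells, and the grey dashed line is the median over all gene pairs, 0.003.

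The 5 genes most like 4 of the members in epithelial cells were found over 1011 cells of 7 stages. For Igf2 they were H19 (0.69), Ptpn13 (0.44), Anxa2 (0.44), Wnt7b (0.42) and Nebl (0.42). For Cdkn1c they were its antisense gene Gm44732 (0.36), Krt15 (0.32), Fth1 (0.31), Otx1 (0.29) and Col17a1 (0.29). Meg3 was closest to Rian (0.58), Rtl1 (0.41), Gm26945 (0.39), Gm27000 (0.35) and Gm26906 (0.29), and Plagl1 to Gm27741 (0.43), Anxa2 (0.40), Tgfbr3 (0.40), Ifi202b (0.39) and Ptrf (0.38). Krt15 and Col17a1 are genes of basal keratinocytes. The correlation with the sum of 10 basal markers was 0.40 for Igf2, 0.40 for H19 and 0.22 for Cdkn1c.

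Lists of other imprinted genes and of proteins that keep imprints were read in the same tests. Of 25 tested among 38 further imprinted genes, some imprinted in placenta or brain only, 1 rose in the epithelium and 0 fell (1.23% and 0.646% of all genes): Begain, of the Dlk1 cluster border, with 2.21, 2.14, 3.22, 4.50, 6.99, 10.2 and 9.71 TPM (slope 0.38, adjusted p = 0.0378). Between the classes Begain was higher in the epithelium, and 6 genes, Cd81, Commd1, Inpp5f, Kcnq1, Mkrn3 and Tssc4, were higher in fibroblast-like cells, which is 1 and 6 of 25 beside 7.99% and 13.3% of all genes. Of 17 imprint regulators 15 were tested and none had a called trend in either class. Ezh2, the H3K27 methyltransferase, had 133, 147, 100, 76.8 and 64.7 TPM in fibroblast-like cells and 45.2 to 87.4 TPM in the epithelium (adjusted p = 0.00683). Ehmt2 and Smchd1 were also higher in fibroblast-like cells, and the methylcytosine oxidase gene Tet3 was higher in the epithelium (0.62 log2 units, adjusted p = 0.0314). These are 3 and 1 of 15 regulators, beside 13.3% and 7.99% of all genes.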

How the data were processed

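HISAT2 2.0.4, featureCounts (Subread 1.5.0), bcl2fastq 1.0 and the build mm10 are named, without their settings, per the submitters' processing notes. The deposited values are TPM per gene symbol, and how TPM were derived, and the use of strand, are not given in the sources used here. All columns of the table were mapped, with 0 unused, and 52 of 1666 labelled cells, marked low quality, are not analysed here. Stage means over plates with at least 5 class cells were taken as log2(mean TPM + 1) for stages with at least 10 class cells. Genes with a mean of 1 TPM or more were tested with limma 3.58.1 (R 4.3.3, empirical Bayes with trend, two-sided, Benjamini-Hochberg adjustment over all genes, threshold 0.05), so fold changes of low genes are understated. Where both classes entered, this mean was averaged over both, so a gene could pass through its level in only the higher class. The code was tested on simulated data. Other steps used Python 3.11.15, pandas 2.3.3, numpy 2.4.6 and scipy 1.17.1. Gene positions came from GENCODE on mm10. All 32 genes could be named; other genes were named from lists or as the 5 nearest by correlation. The genes and lists were chosen with earlier results of these data known. Alternatives covered pseudocounts, filters, averaging, class thresholds, plates and stages.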

Additional observations from a re-analysis of the deposited data

Results flagged for a closer look

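The 162 cells that met neither class rule, which no comparison used, held 2 imprinted genes at over 2 times the highest stage mean of both classes. Asb4 had a mean of 29.6 TPM there, against at most 0.9504 TPM in any class and stage, and Peg10 had 95.04 TPM, against at most 36.4 TPM. Mest, Plagl1, Gnas, Grb10 and Dlk1 were also higher there than in any class and stage, by 1.80, 1.28, 1.21, 1.18 and 1.09 times. Of these cells, 46 had at least 3 endothelial markers at 10 TPM or more, although the sort was against CD31. In them Asb4 averaged 104 TPM and was at 1 TPM or more in 46 of 46, and Peg10 averaged 265 TPM and was at 1 TPM or more in 43 of 46. In 55 cells with nerve and Schwann cell markers by the same rule, Asb4 averaged 0.156 TPM. Peg10 averaged 41.8 TPM in this nerve set and was at 1 TPM or more in 44 of the 55 cells. In its 17 cells of E11.5 the mean of Peg10 was 104.5 TPM. Dlk1 averaged 0.784 TPM in the endothelial set, 2.52 TPM in the nerve set and 543 TPM in 18 cells with fibroblast markers by this rule. Over all 162 cells the median of Dlk1 was 0 TPM. The differences between these sets of cells were not tested.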

How the results depend on the processing

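No called result changed sign. Some alternatives were the same fit and are counted as separate ones here. Leaving out E11.5 equals leaving out its 1 plate, and leaving out the first E15.0 plate was entered repeatedly. Where fibroblast-like cells enter, leaving out E14.0 equals leaving out E14.0 plate 2. The number of members that fell in the epithelium, 5, became 2 with no filter and 8 with log2 values averaged over cells. Over all genes 17 of 48781 and 431 of 18668 fell in these fits. With the rank of the stage 9 members were called, 1 of them rising, beside 664 falling and 740 rising genes of 23667. With only the 8 plates whose labels share 1 naming format, 0 members and 0 genes were called. With 1 stage or plate left out the number of members called ranged from 2 to 5. In fibroblast-like cells the 1 call became 2 with a filter at 10 TPM, 0 with no filter, 2 (both falling) with averaged log2 values, 0 among cells with Xist under 1 TPM, and 0 to 1 with 1 stage or plate left out. Over all genes 124 of 9700 rose with that filter and 213 of 19172 fell with averaged log2 values. The Xist setting left 6 fibroblast-like cells at E11.5, so its fit had 4 stages without E11.5. The choice of cells and the lost stage cannot be told apart there. Between the classes the 11 calls became 17 with averaged log2 values, 15 of them higher in fibroblast-like cells. In that fit 3156 of 19131 genes were higher in fibroblast-like and 1833 in epithelial cells. The calls between the classes ranged from 7 to 16 with 1 stage or plate left out. Slope differences went from 0 calls to 2 with a pseudocount of 5 TPM, 4 with a filter at 10 TPM, 1 with averaged log2 values, 1 with protein-coding genes rescaled, and 0 to 1 with 1 stage or plate left out. At 10 TPM, 8 members in the epithelium and 12 in fibroblast-like cells were detected in at least 50% of cells of each stage. The cause of these changes was not tested. Calls over all genes ranged from 0 to 1404 for the epithelial trend, 0 to 389 for the fibroblast-like trend, 2263 to 7081 between the classes and 0 to 14 for slopes. No paired analysis was possible because a trend uses 1 mean per stage and no plate code of the cell titles recurs in all stages. E13.0 and E15.0 share 1 code and E15.0 and E17.0 share 3, with nothing in the labels on what a code marks, and class differences were already taken within a stage over the same plates. The sequencing depth of a cell is unknown, so a value of 0 TPM has no limit of detection here.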

Other observations

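Cells of neither class also differed in the abundant growth genes. In the 46 cells with endothelial markers, Mest averaged 2259 TPM, H19 1601 TPM, Igf2 1329 TPM, Grb10 509 TPM and Plagl1 426 TPM. In the 55 cells with nerve and Schwann cell markers, Mest averaged 962 TPM and Grb10 442 TPM, whereas Igf2 averaged 7.01 TPM. In 14 cells with melanocyte markers, Grb10 averaged 189 TPM, Igf2 1.14 TPM and H19 1.37 TPM. Marker sets were counted separately, so a cell can belong to more than 1 of them, and these values were not tested.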
